A study of Mus musculus with 5 samples.

Results

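Malat1, Neat1 and 7 host genes of small nucleolar RNAs (snoRNAs), namely Gas5, Snhg1, Snhg3, Snhg5, Snhg8, Snhg12 and Epb41l4aos, are genes of long non-coding RNAs (lncRNAs), and their occupancy by RNA polymerase II (Pol II) was examined in splenic regulatory T (Treg) cells. A peak was assigned to a gene when its midpoint lay in the gene body or within 3 kb upstream, in the mm10 (GRCm38) annotation. By this rule 8 of the 9 genes had a peak, with 16 peaks in all, out of 56615 peaks and 14512 protein-coding and lncRNA genes with a peak. Snhg8 lay entirely inside a Pol II peak, but the midpoint of that peak fell 281 bp past the end of the gene, so Snhg8 is described under a rule that counts any overlap. Pol II was mapped by CUT&Tag, in which antibody-bound Tn5 transposase cuts and tags the DNA near the protein, in nuclei of C57BL/6 mice aged 8 weeks, both sexes pooled. All mice had received IL-2c, a complex of 1 µg IL-2 with 5 µg of the anti-IL-2 clone JES6-1 that expands Treg cells, for 3 days, and were killed 48 h after treatment. Control libraries (Ctrl 1 and Ctrl 2) came from Foxp3CreSetd2flox/+ mice and knockout libraries (KO 1 and KO 2) from Foxp3CreSetd2flox/flox mice, so both groups carried the Cre that the Foxp3 gene drives in Treg cells and at least 1 floxed allele of Setd2. The study describes Treg cells of such control mice as having 1 deficient Setd2 allele. Setd2 encodes the methyltransferase that adds the trimethyl mark to lysine 36 of histone H3 in transcribed genes. Cells of 2 mice were pooled before sorting and 80000 nuclei made 1 library. The study's methods count these nuclei as 1 biological replicate. Whether both libraries of a genotype came from the same pool is not given in the sources used here. The p-values thus rest on a spread between libraries that may be technical.

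Both kinds of transcript are made by Pol II and stay largely untranslated. Malat1 RNA accumulates in nuclear speckles, domains rich in splicing factors, and its 3′ end is cut by the tRNA-processing enzyme RNase P. Neat1 RNA is the scaffold of paraspeckles, and a short and a long isoform start at the same site. A host gene carries snoRNAs in its introns. The introns are spliced out and trimmed to snoRNAs of the C/D class, which guide ribose methylation, or the H/ACA class, which guide pseudouridylation, mostly of ribosomal RNA. The spliced host RNA is often destroyed by nonsense-mediated decay, and many host genes start transcription in a run of C and T letters, the terminal oligopyrimidine type of start.

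The libraries held 11331274 (Ctrl 1), 5624680 (Ctrl 2), 13351007 (KO 1) and 4489646 (KO 2) counts in peaks, and values of the shallower libraries numbered 2 carry the larger counting error. All 6 Treg cell markers examined (Foxp3, Il2ra, Ctla4, Ikzf2, Cd3e and Cd4) had peaks. Of 13 markers of B, CD8 T, myeloid, natural killer and erythroid cells, only the B cell gene Cd79a had a peak, at 10.2 CPM (counts per 1000000 counts in peaks of the library) per kb in Ctrl and rank 13759. The Setd2 locus had 511 and 519 normalised counts in Ctrl and 455 and 570 in KO. The deleted exons are not given in the sources used here, so this value does not check the deletion.

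The sequence at the start site is shown for the genes with an entry in the RefSeq promoter table of GRCm38.p6, which held 8 promoters of 7 of the 9 genes, because an oligopyrimidine start is a known feature of many host genes. Each line gives the 30 bases before and the 30 bases from the start site on, 5′ to 3′ on the gene's strand, and capitals mark the longest run of C and T letters that touches the 10 bases on either side of the start. For Gas5 the start at position 161035166 is shown, the other (161034601) having a run of 3 letters.
Malat1 (chr19:5802623-5802922, minus strand): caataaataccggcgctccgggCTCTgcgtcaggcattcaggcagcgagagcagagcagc
Gas5 (chr1:161034916-161035215, plus strand): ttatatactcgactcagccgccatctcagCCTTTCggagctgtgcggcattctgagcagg
Snhg1 (chr19:8723237-8723536, plus strand): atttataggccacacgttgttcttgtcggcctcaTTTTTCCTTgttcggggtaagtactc
Snhg3 (chr4:132353637-132353936, minus strand): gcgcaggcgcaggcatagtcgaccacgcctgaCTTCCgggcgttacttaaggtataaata
Snhg5 (chr9:88522848-88523147, minus strand): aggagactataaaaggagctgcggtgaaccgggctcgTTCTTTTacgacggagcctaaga
Snhg8 (chr3:123508287-123508586, minus strand): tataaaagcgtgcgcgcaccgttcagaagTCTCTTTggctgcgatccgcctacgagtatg
Snhg12 (chr4:132308428-132308727, plus strand): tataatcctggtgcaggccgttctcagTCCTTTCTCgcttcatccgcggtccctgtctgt
The coordinates are those of the whole 300-base promoters, 250 bases before and 50 after the start. The run was 9 letters long in Snhg1 and Snhg12, a length reached by 9.75% of the 32851 promoters in the table. It had 7 letters in Snhg5 and Snhg8 (20.2% of promoters had as many), 6 in Gas5 (30.0%), 5 in Snhg3 (45.9%) and 4 in Malat1 (65.1%), the median of all promoters being 4. A run of at least 5 such letters whose first letter is a C at the start site itself was found in 2 of the 8 promoters, those of Gas5 and Snhg8, and in 2.51% of all promoters.

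The whole promoters of Snhg8 and Malat1 are shown. The first held 4 of the 6 short motifs searched, as did that of Snhg5, and the second held 2. Capitals mark matches, on both strands, to TATAAA, known as the TATA box. They also mark GGGCGG, the GC box that Sp1 binds. The letters CCAAT, a site of the factor NF-Y, are marked as well. Further matches marked are to CCGGAA, at the core of ETS factor sites. TGACG, found in the cAMP response element, is marked too. The last motif searched was CACGTG, an E-box to which Myc can bind.
Snhg8 promoter (chr3:123508287-123508586, minus strand): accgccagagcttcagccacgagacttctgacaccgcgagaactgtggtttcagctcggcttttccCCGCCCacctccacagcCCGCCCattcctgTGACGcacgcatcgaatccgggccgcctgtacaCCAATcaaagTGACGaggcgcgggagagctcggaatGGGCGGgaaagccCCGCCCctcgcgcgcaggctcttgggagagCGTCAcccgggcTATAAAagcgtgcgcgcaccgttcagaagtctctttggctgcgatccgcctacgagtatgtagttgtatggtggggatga
Malat1 promoter (chr19:5802623-5802922, minus strand): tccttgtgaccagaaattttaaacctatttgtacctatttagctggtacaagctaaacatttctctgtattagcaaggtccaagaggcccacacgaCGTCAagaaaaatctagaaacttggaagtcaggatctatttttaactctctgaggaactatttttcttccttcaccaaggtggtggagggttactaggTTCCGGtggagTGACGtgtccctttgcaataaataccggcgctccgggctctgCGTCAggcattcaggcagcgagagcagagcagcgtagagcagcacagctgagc
TATAAA stood in 4 of the 8 promoters (Snhg1, Snhg3, Snhg5 and Snhg8) and in 13.6% of all promoters. On the gene's strand it began at -30 in Snhg8, at -23 in Snhg5 and at 23, past the start, in Snhg3. In Snhg1 it was read on the opposite strand, from -29 to -24. GGGCGG was found in 5 of 8 (35.7% of all), TGACG in 4 of 8 (20.8%), CCAAT in 3 of 8 (37.4%), CCGGAA in 3 of 8 (14.9%) and CACGTG in 0 of 8 (7.15%). No match of a motif overlapped a match of another motif, and 4 of the 35 matches overlapped a further match of the same motif. All 300 bases lay under a Pol II peak in each of these promoters except that of Snhg12, where 123 bases did.

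The 7 host genes held 27 annotated snoRNAs, each lying whole within an intron of at least 1 host transcript. Of these, 25 also overlapped an annotated exon of another transcript of the host. Gas5 carried 9, Snhg1 8, Snhg12 4, Snhg3 and Snhg5 2 each, and Snhg8 and Epb41l4aos 1 each. Of the 27, 20 lay whole in a Pol II peak, 4 in part and 3 outside. A few are printed from the RefSeq genome of GRCm38.p6 to show what these introns encode. Capitals mark the C box TGATGA and the D box CTGA of C/D snoRNAs, or the ACA near the 3′ end of an H/ACA snoRNA.
Snord80 in Gas5 (chr1:161037601-161037681, plus strand): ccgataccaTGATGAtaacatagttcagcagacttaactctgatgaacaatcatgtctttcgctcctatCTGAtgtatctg
Snord47 in Gas5 (chr1:161038082-161038158, plus strand): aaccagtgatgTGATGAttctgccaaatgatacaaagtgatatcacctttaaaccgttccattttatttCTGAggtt
Snord50b in Snhg5 (chr9:88521797-88521868, minus strand): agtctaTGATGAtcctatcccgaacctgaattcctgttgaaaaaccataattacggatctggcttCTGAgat
Snord50a in Snhg5 (chr9:88521529-88521600, minus strand): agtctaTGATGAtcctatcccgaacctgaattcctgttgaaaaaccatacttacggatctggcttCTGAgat
Snora24 in Snhg8 (chr3:123507937-123508066, minus strand): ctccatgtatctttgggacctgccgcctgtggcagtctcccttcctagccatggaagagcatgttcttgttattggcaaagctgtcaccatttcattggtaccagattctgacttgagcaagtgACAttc
The pair in Snhg5 was identical at 71 of 72 bases and differed by A50C, the Snord50b base first and positions counted from 1 at the 5′ end. The H/ACA pair of Snhg3, Snora73a and Snora73b, was identical at 198 of 205 bases.

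**Figure D1:**
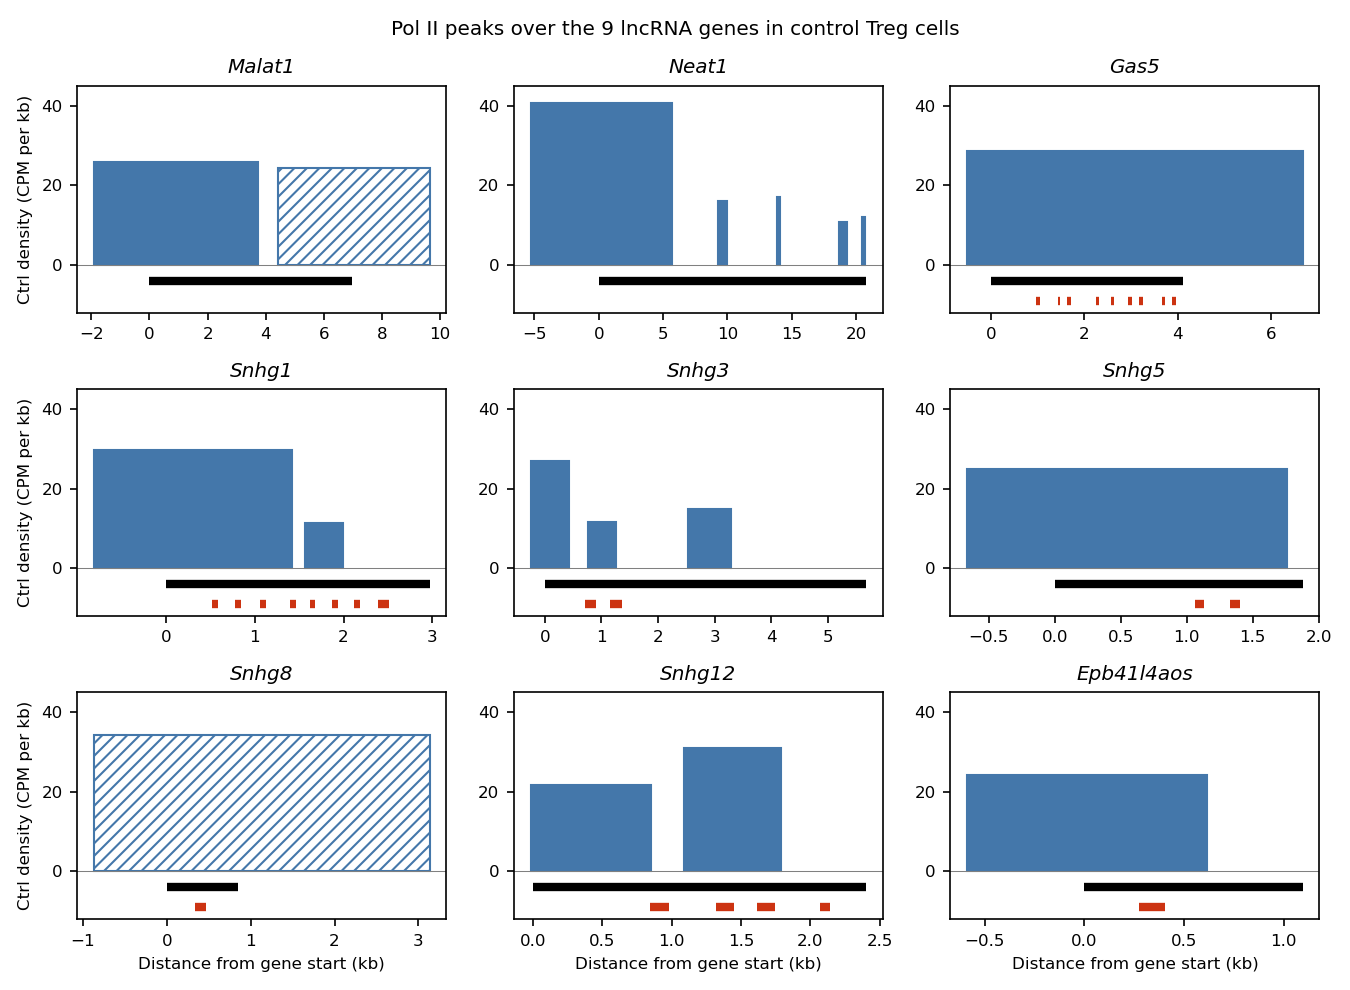
Pol II peaks over the 9 genes in Ctrl libraries. Horizontal axis, distance from the gene's start in kb, in the direction of transcription; vertical axis, mean Ctrl density in CPM per kb of peak (n = 2); filled boxes, peaks assigned by the midpoint; hatched boxes, the 2 peaks that overlap a gene but have their midpoint outside; black bar, gene body; red marks, annotated snoRNAs. The start peak of Neat1 reached 40.7 CPM per kb, and the peaks of Gas5 and Snhg8 spanned the whole gene with its snoRNAs.

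Pol II peaks covered a larger part of each of the 9 genes than of the median gene. Peaks covered 100% of the body of Gas5 and Snhg8, 93.8% of Snhg5, 90.3% of Malat1, 64.7% of Snhg12, 62.4% of Snhg1, 56.2% of Epb41l4aos, 36.1% of Neat1 and 29.5% of Snhg3. The median was 7.19% over all genes with a peak, 10.8% over the 2619 lncRNA genes with a peak, and 16.3% over the 7854 genes no longer than Neat1, the longest of the 9. The genes other than Neat1 are 853 to 6983 bp long, well under that bound, and the coverage of other genes of such lengths was not measured. The coverage is a description of merged peaks, which were called on the same libraries.

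Neat1 (chr19:5824708-5845478, minus strand, 20771 bp) combined a broad start peak with small peaks along the long isoform. The start peak spanned 10954 bp (chr19:5839819-5850772), from position -5294 to 5659 bp relative to the gene's start, and was the 79th longest of the 56615 peaks. It had 43.6 CPM per kb in Ctrl 1 and 37.8 in Ctrl 2, against 41.5 in KO 1 and 34.5 in KO 2. It held 95.7% of the gene's counts in Ctrl 1 (95% Wilson interval 95.1 to 96.2), 93.3% in Ctrl 2 (92.3 to 94.3), 95.1% in KO 1 (94.6 to 95.6) and 94.9% in KO 2 (93.7 to 95.8). The other 4 peaks, 228 to 687 bp long, lay from 9299 bp after the start to 20707 bp, close to the 3′ end, and their mean Ctrl densities were 10.8 to 17.0 CPM per kb.

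Malat1 (chr19:5795690-5802672, minus strand, 6983 bp) had 1 peak by the midpoint rule, 5650 bp long (chr19:5798928-5804577), over the start and the 5′ part. A further peak of 5215 bp (chr19:5793037-5798251) covered the 3′ part, but its midpoint lay 46 bp past the gene's end. Both had similar Ctrl densities, 26.0 and 24.5 CPM per kb, and the ranges of the libraries overlapped (29.5 and 22.4 CPM per kb in Ctrl for the 5′ peak, 26.2 and 22.7 for the 3′ peak).

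Among the C/D host genes, Gas5 (chr1:161034422-161038539) lay under a single peak of 7178 bp (chr1:161033918-161041095), which ran from position -504 to 6673 bp relative to the gene's start and so past its end at 4118 bp. That peak is also the only peak of the protein-coding gene Zbtb37, whose body or 3 kb upstream also held its midpoint, and CUT&Tag reads carry no strand, so the counts cannot be divided between the genes. Snhg1 (chr19:8723475-8726443) had a start peak of 2232 bp at 29.7 CPM per kb in Ctrl and a peak of 431 bp at 11.4 CPM per kb inside the gene, both shared with Slc3a2, which encodes the heavy chain of amino acid transporters. Of its 8 snoRNAs, 5 lay whole in these peaks, 1 in part, and 2 near the 3′ end lay outside. Snhg5 (chr9:88521050-88522929) had 1 peak of 2428 bp over both of its snoRNAs.

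Of the genes with H/ACA snoRNAs, Snhg3 (chr4:132348014-132353686), host of Snora73a and Snora73b, had 3 small peaks, with 26.9 CPM per kb at the start, 11.7 over the snoRNAs and 14.8 further inside. All 3 are shared with Rcc1, the nucleotide exchange factor of the GTPase Ran. Snhg12 (chr4:132308623-132311024), whose 4 snoRNAs are mostly of this class, was the only gene with several peaks whose densest peak did not cover the gene's 5′ end. It has 8 annotated start sites, and the midpoint of its inner peak lay 126 bp from the nearest, that of its first peak 141 bp. The inner peak, over Snora44 and Snora61, had 31.0 CPM per kb in Ctrl against 21.7 in the first peak. It was the higher in all 4 libraries (27.0 and 25.6 in Ctrl 1, 35.0 and 17.9 in Ctrl 2, 31.9 and 22.1 in KO 1, 28.1 and 16.7 in KO 2). Snhg8 (chr3:123507552-123508404), host of Snora24, lay inside a peak of 4003 bp (chr3:123505270-123509272). Epb41l4aos (chr18:33794892-33795986), an lncRNA gene beside Epb41l4a, had 1 peak of 1202 bp over its start and its 1 snoRNA.

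The occupancy of the lncRNA genes was then compared per length. Density is the gene's CPM, relative to all peak counts of the library, divided by the summed length of its peaks in kb. The median over all 14512 genes was 18.5 CPM per kb in Ctrl, and the highest was 684. In bulk nuclei, fewer nuclei with Pol II on a gene and less Pol II per nucleus cannot be told apart.

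Neat1 was the densest, with 39.0 CPM per kb in Ctrl 1 and 34.6 in Ctrl 2, against 37.3 in KO 1 and 31.2 in KO 2 (36.8 ± 3.10 in Ctrl, SD, n = 2). It ranked 1004 of 14512 genes and 189 of 2619 lncRNA genes in Ctrl, and 283 when the length was not taken into account.
Gas5 followed with 29.9 and 27.7 CPM per kb in Ctrl and 30.9 and 25.1 in KO, at rank 2273 of all genes and 410 of lncRNA genes. Its range in Ctrl lay entirely below that of Neat1.
Snhg1 had 29.2 and 24.2 CPM per kb in Ctrl and 25.4 and 24.7 in KO, at rank 2763.
Malat1, at rank 3038 of all genes and 551 of lncRNA genes, had the largest SD of the 8 genes in both groups, with 29.5 and 22.4 CPM per kb in Ctrl and 27.3 and 20.1 in KO. It ranked 2121 in Ctrl 1 alone and 4634 in Ctrl 2 alone. In the mean of both it lay in the top 20.9% of genes.
Snhg12 had 26.2 and 25.6 CPM per kb in Ctrl and 26.5 and 21.8 in KO, at rank 3061.
Snhg5 had 26.1 and 23.9 CPM per kb in Ctrl and 27.3 and 22.9 in KO, at rank 3352.
Epb41l4aos had 26.0 and 22.6 CPM per kb in Ctrl and 22.2 and 23.9 in KO, at rank 3635.
Snhg3 was the least dense, with 19.4 and 17.1 CPM per kb in Ctrl and 17.8 and 16.2 in KO, at rank 7427, near the median gene and below the Ctrl range of Epb41l4aos.
Among the 8 genes only these outer steps, from Neat1 to Gas5 and from Epb41l4aos to Snhg3, separated neighbours whose Ctrl ranges did not overlap. Snhg8, under the rule of any overlap, had 34.7 and 34.1 CPM per kb in Ctrl and 31.2 and 31.8 in KO, at rank 1285 of the 14639 genes that this rule gives, and Malat1 with its 3′ peak then had 25.2 CPM per kb at rank 3344. Ctrl 1 was denser than Ctrl 2 in all 8 genes ranked by the midpoint rule, whereas Ctrl 2 was denser in 53.2% of all genes.

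**Figure D2:**
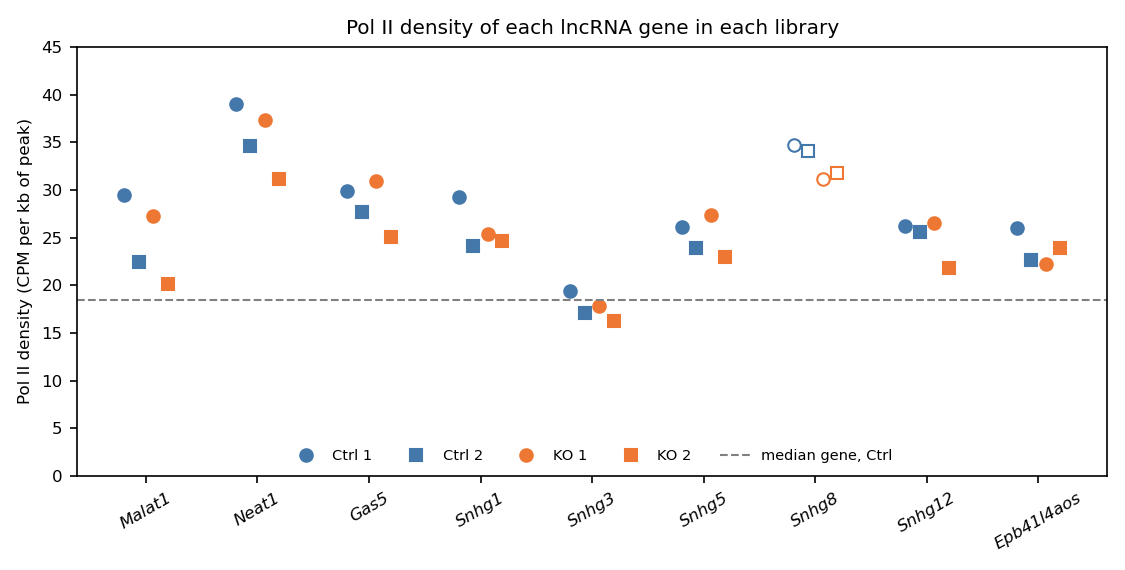
Pol II density of each gene in each library, in CPM per kb of peak. Blue, Ctrl; orange, KO; circles, libraries numbered 1; squares, libraries numbered 2; open symbols, Snhg8 under the rule of any overlap; dashed line, median of all genes in Ctrl (18.5). Neat1 and Snhg8 stood highest, and Snhg3 lay around the median.

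The rank depended on the length used. Division by the length of the gene plus 3 kb, in place of the length of its peaks, gave Gas5 rank 165, Neat1 391, Malat1 690, Snhg5 953, Snhg1 1046, Snhg12 2114, Epb41l4aos 2270 and Snhg3 3989 of 14512. On that scale the 8 genes lay 2.43-fold (Snhg3) to 17.4-fold (Gas5) above the median gene, against 0.989-fold to 1.99-fold per kb of peak. The windows ran from 4.1 kb (Epb41l4aos) to 9.98 kb (Malat1), with 23.8 kb for Neat1. Other genes with windows of such lengths were not compared, so the part of gene length in these ratios was not tested. The Gas5 value comes wholly from the peak shared with Zbtb37. The window of Gas5 (7.12 kb) was shorter than its peak (7.18 kb), so counts from beyond the window entered its value. The same holds for Neat1, whose start peak began at position -5294, beyond the 3 kb upstream. Likeness in level was measured as the difference in the mean of the log2 densities of the 2 Ctrl libraries, an order that differs from that of the mean density. By it, genes near to Malat1 included Sit1 (mean Ctrl density 25.7 CPM per kb) and Arl3 (25.8). Nearest to Gas5 were Zbtb37, through the shared peak, Gm49086 (28.8) and Ankrd10 (28.8).

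**Figure D3:**
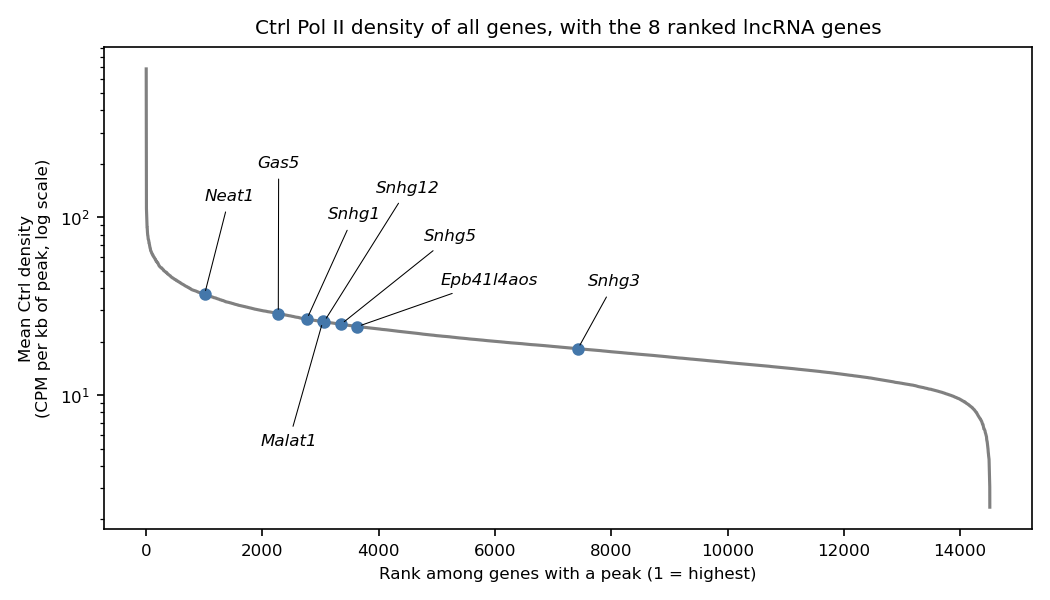
Mean Ctrl density (n = 2) in CPM per kb of peak, on a log scale, against the rank of each of the 14512 genes, with the 8 genes ranked by the midpoint rule as blue points. Neat1 stands at rank 1004, 6 of the others between 2273 and 3635, and Snhg3 at 7427.

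As a reference for the host genes, all annotated hosts were examined. Of 71 lncRNA genes with a snoRNA inside on the same strand, the 7 hosts described here among them, 31 had a peak, with a median Ctrl density of 21.1 CPM per kb. Of 279 protein-coding hosts, 224 had a peak, with a median of 20.8. The medians of all lncRNA genes and all protein-coding genes were 17.7 and 18.6 CPM per kb.

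KO was next compared with Ctrl, whose Treg cells have 1 deficient Setd2 allele. The question was whether loss of both alleles altered Pol II over these genes. No change was detected at any of them. The DESeq2 Wald test on gene sums called 0 of the 8 genes at an adjusted p under 0.05, against 14 of all 14512 genes (0.0965%, 3 higher and 11 lower in KO). At an unadjusted p under 0.05 the test gave 0 of the 8 genes, against 402 of all genes (2.77%). The edgeR quasi-likelihood test also gave 0 of the 8 genes at an unadjusted p under 0.05, and called 0 of all genes, 685 of which had an unadjusted p under 0.05 by it. The Ctrl and KO libraries overlapped in each of the 8 genes, so that 0 were free of overlap, against 4967 of all genes (34.2%). KO over Ctrl, the log2 fold change was below 0 in 7 genes and above 0 in 1, with a median of -0.10, the median of all genes being -0.0041. That lean is not a call, and it changed sign in 6 of the 7 genes when 1 library was left out. Without KO 2 the log2 fold changes of Malat1, Neat1, Gas5 and Snhg12 were 0.06, 0.02, 0.10 and 0.03, and without Ctrl 1 those of Malat1, Gas5, Snhg1 and Epb41l4aos were 0.09, 0.02, 0.05 and 0.02.

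Malat1 had 1324 normalised counts in Ctrl 1 and 993 in Ctrl 2, against 1213 in KO 1 and 884 in KO 2. The 2 libraries numbered 1 stood above the 2 libraries numbered 2, whatever the genotype. This order was also seen in Neat1, Gas5, Snhg1, Snhg3, Snhg5 and Snhg12, but not in Epb41l4aos. The libraries numbered 1 were also the deeper, and the part of depth in this order was not tested. The log2 fold change was -0.14 ± 0.19 (SE, DESeq2 adjusted p = 1.00, 95% interval of the fold 0.702 to 1.17), and -0.17 ± 0.16 with the 3′ peak added.
Neat1 had 3965 and 3477 normalised counts in Ctrl and 3763 and 3106 in KO. The same order by library number was seen, and the log2 fold change was -0.11 ± 0.14 (adjusted p = 1.00, interval 0.764 to 1.12).
Gas5, with the shared Zbtb37 peak, had 1703 and 1558 normalised counts in Ctrl and 1749 and 1403 in KO. Both Ctrl values lay between the KO values, with a log2 fold change of -0.04 ± 0.15 (adjusted p = 1.00, interval 0.789 to 1.19).
Snhg1 had 618 and 505 normalised counts in Ctrl and 532 and 512 in KO, the KO values lying between those of Ctrl. Its log2 fold change was -0.11 ± 0.18.
Snhg3 had 296 and 258 normalised counts in Ctrl and 270 and 243 in KO, with a log2 fold change of -0.11 ± 0.23.
Snhg5 had 504 and 456 normalised counts in Ctrl and 523 and 433 in KO, with the log2 fold change closest to 0 (0.00 ± 0.19).
Snhg12 had 327 and 315 normalised counts in Ctrl and 329 and 267 in KO, with a log2 fold change of -0.10 ± 0.22.
Epb41l4aos, the gene with the fewest counts, had 248 and 213 in Ctrl and 210 and 224 in KO, with a log2 fold change of -0.10 ± 0.24. For these last 5 genes the intervals of the fold ran from 0.673 at the lowest to 1.29 at the highest, so that a difference within these bounds could not be resolved at this depth and n.
Snhg8, under the rule of any overlap, had 1103 and 1070 normalised counts in Ctrl and 983 and 990 in KO. Each KO value was below each Ctrl value. Groups free of overlap, in either direction, were seen in 34.2% of all genes under the midpoint rule. The fitted log2 fold change was -0.14 ± 0.14 (interval 0.745 to 1.10, DESeq2 adjusted p = 1.00).

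**Figure D4:**
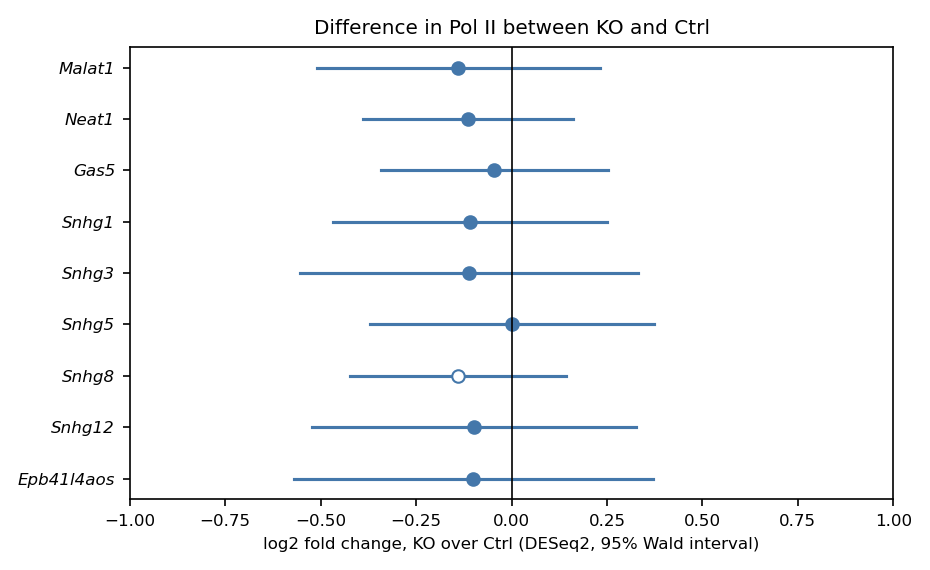
Log2 fold change (KO over Ctrl) for each gene, from the DESeq2 fit across all genes. Points, estimates; bars, 95% Wald intervals; open point, Snhg8 under the rule of any overlap. Every interval included 0, and the estimates lay between -0.14 and 0.00.

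Single peaks gave the same picture. The DESeq2 test called 0 of the 16 peaks at an adjusted p under 0.05, as it called 0 of all 56615 (0%), and 0 of the 16 at an unadjusted p under 0.05, against 864 of all peaks (1.53%). The edgeR test called 27 of all peaks, and 0 of the 16 had an unadjusted p under 0.05 by it. The groups did not overlap in 3 of the 16, against 18289 of all peaks (32.3%), and all 3 were small peaks inside Neat1.
The peak 9299 to 9985 bp after the start of Neat1 had 78.3 and 97.8 normalised counts in Ctrl and 72.5 and 47.7 in KO, with a log2 fold change of -0.51 ± 0.41, whose unadjusted p of 0.207 was the lowest of the 16 (DESeq2).
The peak 13832 to 14100 bp after the start had 28.0 and 44.1 in Ctrl and 27.9 and 27.3 in KO, with a log2 fold change of -0.36 ± 0.57.
The peak at the 3′ end had 20.1 and 23.4 in Ctrl and 27.3 and 35.8 in KO, with a log2 fold change of 0.52 ± 0.61. The first pair was thus lower and the last higher in KO, each by less than 2 standard errors.

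The share of a gene's counts near a start site was compared within each library, which removes the depth of the library. Neat1 was the only gene with peaks both within 3 kb of an annotated start site and farther away. It has 4 such sites, and the peaks counted as near were its start peak and the peak 18627 to 19288 bp after the gene's start. The midpoint of the latter peak lay 1492 bp from a start site. The share was 96.9% (Wilson interval 96.4 to 97.3) in Ctrl 1, 95.2% (94.3 to 96.0) in Ctrl 2, 96.6% (96.2 to 97.0) in KO 1 and 96.4% (95.4 to 97.1) in KO 2. KO exceeded Ctrl by 0.462 percentage points (exact permutation test, two-sided, p = 1.0, 2 against 2 libraries, where the smallest p possible is 0.33). The difference was -0.390 points without Ctrl 2 and 1.31 points without Ctrl 1, so its direction rested on Ctrl 2. With a window of 1 kb, Snhg3 could be compared too, the first 2 of its 3 peaks counting as near a start site. Its share was 69.2% (64.6 to 73.4) and 66.5% (59.4 to 72.9) in Ctrl and 65.9% (61.4 to 70.1) and 62.1% (53.9 to 69.8) in KO. Both KO values lay below both Ctrl values, and the Wilson intervals of all libraries overlapped. The exact test gave p = 0.33, which any 2 against 2 values without overlap give. How often such shares separate in other genes is not given here.

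The protein-coding genes that share peaks with host genes did not separate the groups either. Slc3a2, with 7 peaks including the 2 of Snhg1, had 2458 and 1923 normalised counts in Ctrl and 2134 and 1703 in KO, with a log2 fold change of -0.19 ± 0.16. Rcc1, with 6 peaks including the 3 of Snhg3, had 619 and 552 in Ctrl and 593 and 532 in KO, with a log2 fold change of -0.06 ± 0.18. Zbtb37 has the values of Gas5.

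Genes of the pathways around these RNAs were read from the same fit, and 0 genes of the lists below were called by DESeq2 in either direction, against 0.0965% of all genes. Apart from 2 protein-coding hosts, 0 of them had an unadjusted p under 0.05 by DESeq2, against 2.77% of all genes. Of all annotated hosts with a peak, 0 of 31 lncRNA genes and 4 of 224 protein-coding genes had an unadjusted p under 0.05, with median log2 fold changes of -0.03 and -0.04.
Of 14 other lncRNA hosts, 12 were in the annotation and 9 had a peak, with a median log2 fold change of -0.01. Snhg15 (1993 and 1739 normalised counts in Ctrl, 1653 and 1484 in KO, log2 fold change -0.25) and Snhg20 (0.28) had the lowest p.
All 25 protein-coding hosts had a peak, and 2 had an unadjusted p under 0.05. By the DESeq2 fit across all genes these were Rpl7a, a protein of the large ribosomal subunit, with 991 and 1091 normalised counts in Ctrl and 1280 and 1356 in KO (log2 fold change 0.34 ± 0.15, SE), and Rpsa, of the small subunit, with 1190 and 1114 in Ctrl and 1432 and 1391 in KO (0.29 ± 0.14). Each KO value exceeded each Ctrl value in both genes, and the adjusted p was 1.00 for both. The groups were free of overlap, in either direction, in 12 of the 25 hosts, against 34.2% of all genes. They were so in 3 of the 9 other lncRNA hosts with a peak. In the lists below the counts were 4 of 12 (snoRNP), 3 of 15 (paraspeckle) and 1 of 10 (speckle). They were 1 of 10 for decay genes and 1 of 5 for the further nuclear lncRNAs. The median of the list was 0.0091.
Of 13 snoRNP genes, whose proteins bind and mature snoRNAs, 12 had a peak, with a median of -0.09. Naf1, an assembly factor of H/ACA particles (-0.45), and Nop58, a core protein of C/D particles (-0.17), had the lowest p.
All 15 genes of paraspeckle proteins, the partners of Neat1 RNA, had a peak, with a median of -0.04. Hnrnpk (0.25) and Matr3 (-0.18) had the lowest p.
All 10 genes of nuclear speckle proteins and of Malat1 RNA handling had a peak, with a median of -0.02, and Srrm2 (-0.10), a speckle scaffold, and Srsf2 (0.12), a splicing factor, had the lowest p.
All 10 genes of nonsense-mediated decay had a peak, with a median of -0.06, and Upf3a (-0.37) and Upf2 (-0.20) had the lowest p.
Of 9 further nuclear lncRNAs, 5 had a peak, with a median of 0.0069. Xist, the RNA that coats the inactive X chromosome, had 171 and 230 normalised counts in Ctrl and 122 and 168 in KO (log2 fold change -0.48, DESeq2 unadjusted p = 0.0987). The libraries pooled both sexes in shares that the sources used here do not give, and the part of sex in this value was not tested. Tug1 had a log2 fold change of 0.17.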

How the data were processed

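Pol II CUT&Tag libraries of Ctrl and KO Treg cells (2 each) were analysed, with groups taken from the labels. The IgG library is not analysed here. Per the study's methods and the submitters' processing notes, the authors mapped paired-end reads to mm10 with Bowtie2, called peaks with MACS2 against IgG, used bedtools to merge peaks across libraries, and deposited raw read counts per merged peak. Versions are not given in the sources used here. Since peaks were called on the libraries compared, levels are those of called regions, and a density is an average over the whole merged peak.

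Peaks were assigned to genes with GENCODE vM21 (GRCm38). A peak could count for several genes. Counts summed per gene, and counts per peak, were compared with the DESeq2 1.42.0 Wald test (R 4.3.3, genotype only, two-sided, Benjamini-Hochberg over all 14512 genes or 56615 peaks, called at an adjusted p under 0.05). Normalised counts are counts divided by DESeq2 size factors, which were 1.43, 0.717, 1.70 and 0.577 for Ctrl 1, Ctrl 2, KO 1 and KO 2 in the gene fit and 1.39, 0.726, 1.68 and 0.587 in the peak fit. Alternatives were the edgeR 4.0.16 quasi-likelihood test, a replicate block, TMM and total count scaling, a mean of at least 10 counts, other peak rules and leaving out each library. Wilson intervals (95%) of shares cover only counting error, as reads are not independent molecules. The members and lists were chosen with earlier results of these data known, and the named genes were all members, coding genes sharing their peaks, the 3 genes nearest to Malat1 and to Gas5 in mean log2 Ctrl density, and of each list the genes called or the 2 with the lowest p. A gene that this rule gives is not reported here. Promoters were taken from the RefSeq table and snoRNAs from the RefSeq genome of GRCm38.p6, and all 8 promoters matched the genome.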

Additional observations from a re-analysis of the deposited data

How the results depend on the processing

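The 8 fold changes stayed uncalled under each alternative that gave them an adjusted p. With the replicate block, DESeq2 gave one only to Neat1 and Gas5, so the others could not be called there. With all libraries kept, the lowest unadjusted p was 0.116, by DESeq2 for Neat1 with the replicate block. Without leaving out libraries, 60 of 61 alternative values kept their direction, and the exception was Snhg5 with a replicate block (log2 fold change -0.0054). The genes that share all their peaks with coding genes (Gas5, Snhg1 and Snhg3) gave no value for unshared peaks. With 1 library left out, the lone library of its group is assumed to vary like the others, and the log2 fold changes ran from -0.39 to 0.0879 for Malat1, -0.26 to 0.0158 for Neat1, -0.22 to 0.10 for Gas5, -0.24 to 0.0515 for Snhg1, -0.15 to 0.12 for Snhg5, -0.27 to 0.0319 for Snhg12, -0.20 to 0.0229 for Epb41l4aos and -0.20 to -0.0035 for Snhg3. Scaling by TMM or total counts moved the median of all genes by 0.0020 and 0.01.

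The labels number the libraries 1 and 2 in both groups without saying that a number marks a shared pool or day. Deviations of same-numbered libraries correlated at 0.385 across genes, over 2 pairs. With the replicate block DESeq2 called 122 genes and 25 peaks in place of 14 and 0, with 13223 genes left without an adjusted p by its filter. The edgeR test called 0 genes and 27 peaks, and promoter peaks alone gave 8 genes. The genes called numbered 0 with Ctrl 1 left out, 2 with Ctrl 2, 0 with KO 1 and 3 with KO 2 left out, while the peaks called numbered 0 to 5. The cause of these differences was not tested.

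Per kb of gene body plus 3 kb upstream the Ctrl ranks became 690 for Malat1, 391 for Neat1, 165 for Gas5, 1046 for Snhg1, 3989 for Snhg3, 953 for Snhg5, 2114 for Snhg12 and 2270 for Epb41l4aos, since the divisor is no longer the length of the peaks. In single Ctrl libraries the ranks were 2121 to 4634 for Malat1, 814 to 1302 for Neat1, 2043 to 2567 for Gas5, 2187 to 3746 for Snhg1, 6534 to 8522 for Snhg3, 3084 to 3847 for Snhg5, 3052 to 3178 for Snhg12 and 3125 to 4518 for Epb41l4aos. The difference in the share of Neat1 counts near a start site ran from -0.390 to 1.31 points, the negative value being that without Ctrl 2. List medians without 1 library ran from -0.0411 to 0.0508 (lncRNA hosts), -0.0214 to 0.0950 (coding hosts), -0.11 to -0.0445 (snoRNP), -0.0960 to 0.0456 (paraspeckle), -0.15 to 0.0814 (speckle), -0.0765 to 0.0183 (decay) and -0.11 to 0.13 (further lncRNAs). The low counts in the inner peaks of Neat1 limit what those peaks can show.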
